A study of Mus musculus with 6 samples.

Results

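The guanylate-binding proteins (GBPs) were followed here in cervical spinal cord of mice with an imiquimod-induced skin inflammation. The 9 genes were taken by symbol, Gbp2 to Gbp10, out of 54532 genes in the deposited tables, and all 9 were present. C57BL/6 mice had received 50 mg of cream with 5% imiquimod on shaved skin behind the neck, daily on 2 days; imiquimod activates Toll-like receptor 7. Controls had received an equal amount of vehicle cream and no imiquimod. Each group had 3 libraries, which the labels call biological replicates. Age and sex were not given in the sources used here. The comparison asks which transcripts differ in the cord segments that serve the neck when that skin is inflamed.

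GBPs are large GTPases of the dynamin superfamily that interferons, above all interferon gamma, induce in most cell types. They bind GTP, assemble on the membranes of vacuoles that hold bacteria or parasites and on the bacteria themselves, and help to open these compartments. By this route they feed inflammasome caspases, which cleave gasdermin D. In the central nervous system they are known as interferon response genes of microglia, astrocytes and endothelium.

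Values are FPKM, fragments scaled to exon length and library size. Recovered totals ran from 18174411 to 23200993 fragments per library. Markers of neurons (Snap25, Rbfox3), motor neurons (Chat, Prph), astrocytes (Gfap) and oligodendrocytes (Mbp) were present in both groups. Rbfox3, Chat and Prph were called lower in the imiquimod cords, and the summed markers of motor neurons were 57.9 to 62.3 against 25.3 to 45.6 FPKM. Summed markers of neurons were 921 to 964 FPKM in vehicle and 673 to 854 FPKM in imiquimod mice. Those of oligodendrocytes were 7503 to 8026 against 4862 to 6331 FPKM, but 0 of 6 were called. Called lower were 2 of 8 neuron and 2 of 4 tested motor neuron markers, beside 5.34% of all genes tested. Of 7 astrocyte markers 2 were lower and 1 higher, and their sums overlapped (1399 to 1463 against 1272 to 1459 FPKM). Gapdh was listed at 1.56 to 2.15 FPKM in the other libraries but at 26.4 FPKM in imiquimod replicate 3. Whether multi-copy reads were counted otherwise in that library was not tested. Without that library 6 members were called higher in place of 7.

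In the GRCm38 assembly, 4 of the members lie on chromosome 3 and 5 on chromosome 5, each set in a row of neighbouring genes. On the plus strand of chromosome 3 the GENCODE order is Gbp5 (chr3:142493978-142522344), Gbp7 (chr3:142530342-142550149), Gbp3 (chr3:142560026-142573209), Gbp2b (chr3:142594847-142619179) and Gbp2 (chr3:142620602-142638008). On the minus strand of chromosome 5 lie Gbp8 (chr5:105014150-105139540), Gbp9 (chr5:105077630-105139539), Gbp4 (chr5:105115767-105139586), Gbp10 (chr5:105215699-105239533) and Gbp6 (chr5:105270702-105293698), followed by Gbp11 (chr5:105323042-105346472). Gbp2b, which encodes the protein called mouse GBP1, and Gbp11, annotated as a polymorphic pseudogene, are family genes outside the 9. The models of Gbp8, Gbp9 and Gbp4 share their upstream end, with 60 or 61 shared exon bases.

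The stretches before the start sites are shown because the members moved together and interferon acts on these genes through short promoter elements. Promoter windows of 300 bases (250 before and 50 after the RefSeq start, GRCm38.p6) were matched for Gbp2, Gbp3, Gbp5 and Gbp7, 4 of the 9 members, and for Gbp2b. Each was searched on both strands for GAAA, any 2 bases and GAAA, the core of an interferon-stimulated response element (ISRE), and for TTCNNNGAA, the core of a gamma-activated site (GAS), which reads alike on both strands. The 180 bases directly before each start are printed 5′ to 3′ on the plus strand, with matches in capitals. ISRE-like matches lay on the minus strand, so they read TTTC, any 2 bases and TTTC here.
Gbp2, chr3:142620483-142620662: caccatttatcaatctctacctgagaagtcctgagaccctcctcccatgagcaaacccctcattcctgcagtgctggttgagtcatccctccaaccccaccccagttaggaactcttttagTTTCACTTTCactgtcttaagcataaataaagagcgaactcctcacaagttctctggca
Gbp3, chr3:142559864-142560043: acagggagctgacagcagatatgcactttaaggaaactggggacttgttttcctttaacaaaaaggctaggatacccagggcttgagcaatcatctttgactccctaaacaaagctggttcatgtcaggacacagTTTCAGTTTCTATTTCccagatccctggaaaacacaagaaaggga
Gbp5, chr3:142496754-142496933: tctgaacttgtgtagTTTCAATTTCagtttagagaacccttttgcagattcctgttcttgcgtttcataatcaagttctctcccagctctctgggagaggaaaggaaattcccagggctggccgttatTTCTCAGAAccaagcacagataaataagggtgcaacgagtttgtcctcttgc
Gbp7, chr3:142530156-142530335: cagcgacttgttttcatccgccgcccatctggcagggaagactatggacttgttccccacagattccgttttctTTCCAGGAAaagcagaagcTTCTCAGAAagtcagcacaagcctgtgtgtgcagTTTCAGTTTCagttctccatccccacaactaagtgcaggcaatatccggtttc
Gbp2b, chr3:142594667-142594846: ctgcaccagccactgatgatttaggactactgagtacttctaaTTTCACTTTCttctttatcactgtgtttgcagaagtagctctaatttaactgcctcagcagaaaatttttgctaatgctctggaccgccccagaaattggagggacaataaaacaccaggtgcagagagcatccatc

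An ISRE-like match stood before a RefSeq start of all 5 genes, while 3.44% of 32851 promoter windows of the genome held at least 1. Counted back from the base before the start as -1, it lay at -59 to -50 in Gbp2, at -53 to -44 in Gbp7, at -165 to -156 in Gbp5 and at -137 to -128 in Gbp2b. Gbp3 had 2 matches that overlap, from -45 to -36 and from -39 to -30, and a second Gbp3 start with a window of its own had none. GAS-like matches stood in Gbp7 (at -106 to -98 and -87 to -79) and in Gbp5 (at -52 to -44 and, outside the printed stretch, at -245 to -237), against 8.30% of all windows with at least 1. The nearer match of each was the same 9 letters, TTCTCAGAA. The RefSeq starts of Gbp5 (142496934) and Gbp2 (142620663) lie inside their GENCODE genes, which begin at 142493978 and 142620602. The matches of Gbp5 and Gbp2 thus lie within the GENCODE gene and not before it. A match describes letters in these windows and does not show that a factor binds there.

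Every member had a higher mean level in the imiquimod cords, by 2.83-fold for Gbp4 to 8.48-fold for Gbp6. The summed FPKM of the 9 genes was 16.6, 31.4 and 18.7 in the vehicle mice and 152, 108 and 147 in the imiquimod mice. The means were 22.2 ± 8.04 against 136 ± 24.2 (SD, n = 3 each), a ratio of 6.11. Of the 8 members with enough signal to enter the test, 7 were called higher and 0 lower (limma on log2(FPKM + 0.1), Benjamini-Hochberg adjusted p under 0.05). Among all 16513 genes tested, 8.74% were called higher and 5.34% lower. Gbp6 and Gbp10 entered only through their imiquimod level. With no filter on low values all 9 members were tested and 7 were called higher and 0 lower, where 3.40% of 31740 genes were called higher and 1.60% lower. In 8 of the 9, every imiquimod library lay above every vehicle library, as in 19.8% of the genes tested (18.0% had every imiquimod library below). More cells of a type and more RNA per cell cannot be told apart in such bulk tissue.

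**Figure D1:**
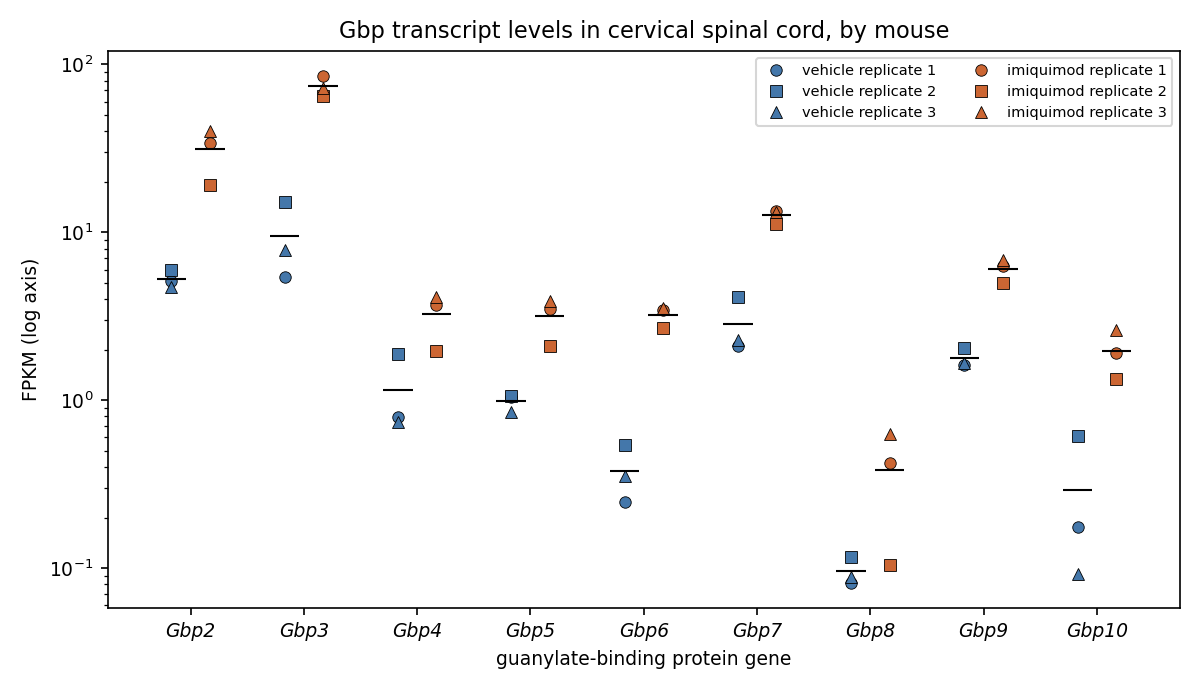
FPKM (log axis) of the 9 Gbp genes in each of the 6 cord libraries, with vehicle mice in blue, imiquimod mice in orange and symbols for the replicate. Horizontal lines are group means. Only Gbp8 shows overlapping groups, and the replicate 2 libraries (squares) are the highest vehicle and the lowest imiquimod library for every gene.

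Gbp3 and Gbp7 of chromosome 3 had the closest coding sequences among the members on that chromosome, with 78.3% identical aligned bases. Gbp3 was the most abundant member in both groups. It stood at 5.40, 15.1 and 7.88 FPKM in vehicle and at 85.2, 64.6 and 72.2 FPKM in imiquimod mice. Its lowest imiquimod value was thus well above its highest vehicle value. It rose by 3.08 ± 0.34 (log2 change ± SE, limma adjusted p = 0.00314). Gbp7, which has been linked to oxidative and autophagic defence in macrophages, stood at 2.10, 4.13 and 2.27 FPKM against 13.4, 11.2 and 13.3 FPKM. The 3 imiquimod values lay close together, and vehicle replicate 2 stood apart from its group. Gbp7 rose by 2.18 ± 0.24 (limma adjusted p = 0.00314). Within a library, Gbp3 was 2.57, 3.66 and 3.47 times Gbp7 in vehicle and 6.36, 5.75 and 5.44 times Gbp7 in imiquimod mice.

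Gbp2 and Gbp5 form the other pair on that chromosome, with 69.9% identical aligned coding bases, and both encode proteins with a C-terminal prenylation motif that anchors them to membranes. Gbp2, which coats pathogen vacuoles, stood at 5.10, 5.94 and 4.71 FPKM in vehicle and at 34.3, 19.0 and 40.2 FPKM in imiquimod mice. The vehicle mice lay close together and the imiquimod mice were spread wide, with replicate 2 lowest. Gbp2 rose by 2.48 ± 0.26 (limma adjusted p = 0.00274). Gbp5, which promotes assembly of the NLRP3 inflammasome, stood at 1.04, 1.06 and 0.855 FPKM against 3.51, 2.09 and 3.87 FPKM. It followed the same order of imiquimod mice and rose by 1.55 ± 0.23 (limma adjusted p = 0.00838). Gbp2 was 4.91, 5.62 and 5.51 times Gbp5 in vehicle and 9.75, 9.11 and 10.4 times Gbp5 in imiquimod mice.

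The ratios of both pairs did not overlap between groups. Gbp3 over Gbp7 was 3.23 ± 0.583 against 5.85 ± 0.469, and Gbp2 over Gbp5 was 5.35 ± 0.385 against 9.74 ± 0.638 (SD, n = 3 each). Each gave a two-sided exact permutation p of 0.1, the smallest that 3 against 3 allows. The pairs were chosen after their values were seen, among 4 ratios computed. The other 2 ratios overlapped: Gbp6 over Gbp10 (exact permutation p = 1.0) and Gbp3 over Gbp2 (exact permutation p = 0.3). Within both non-overlapping pairs the more abundant gene thus changed by the larger factor.

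**Figure D2:**
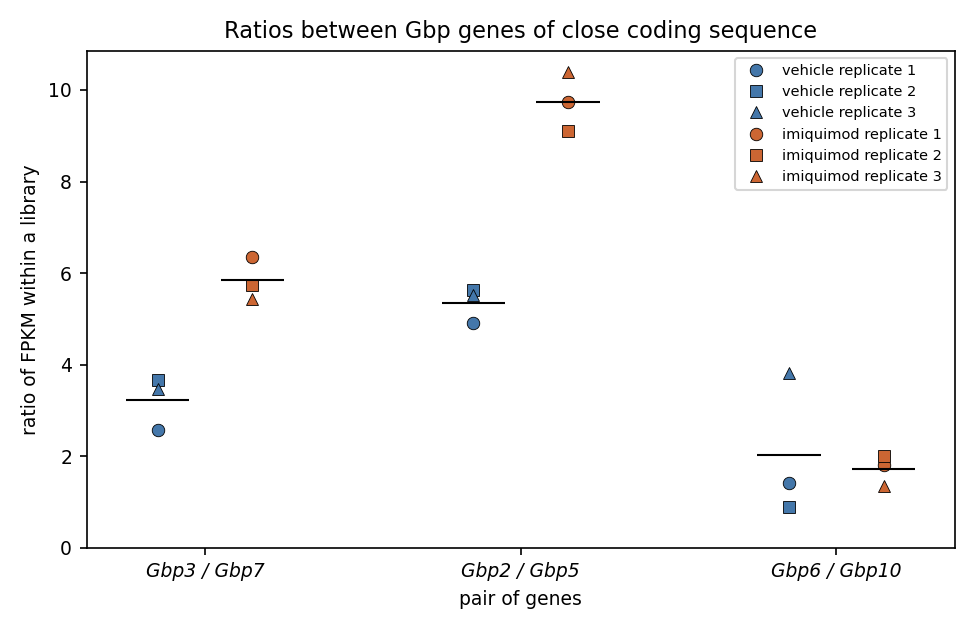
Ratio of FPKM within each of the 6 libraries (axis from 0) for 3 pairs of Gbp genes, vehicle in blue and imiquimod in orange, with lines at the group means. Gbp3 over Gbp7 and Gbp2 over Gbp5 lie higher in every imiquimod library than in any vehicle library, while Gbp6 over Gbp10 overlaps.

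The chromosome 5 members share 89.6% to 98.4% of aligned coding bases with each other and 60.9% to 74.9% with those of chromosome 3. Their single-gene roles are less studied. Gbp9 was the most abundant of them, at 1.62, 2.03 and 1.67 FPKM in vehicle and 6.26, 5.01 and 6.85 FPKM in imiquimod mice. Both groups were tight and far apart, and Gbp9 rose by 1.71 ± 0.14 (limma adjusted p = 0.00127). Gbp4 stood at 0.799, 1.90 and 0.744 FPKM against 3.67, 1.96 and 4.11 FPKM. The groups did not overlap, but vehicle replicate 2 and imiquimod replicate 2 were nearly level. Gbp4 did not pass (1.48 ± 0.40, limma adjusted p = 0.053). It passed without vehicle replicate 2 (1.88, limma adjusted p = 0.0271) or without imiquimod replicate 2 (1.79, limma adjusted p = 0.0279). It did not pass on leaving out any other library (limma adjusted p 0.137 to 0.167).

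Gbp6 and Gbp10 differ least of all pairs, with 1803 of 1833 aligned coding bases identical. Gbp6 was low in vehicle mice at 0.247, 0.541 and 0.352 FPKM and stood at 3.45, 2.68 and 3.54 FPKM in imiquimod mice. Its imiquimod values were close to each other, and it rose by 2.83 ± 0.25 (limma adjusted p = 0.00156). Gbp10 stood at 0.175, 0.609 and 0.0924 FPKM against 1.92, 1.34 and 2.62 FPKM. Its vehicle values rested on 12, 41 and 7 fragments, and it rose by 2.57 ± 0.50 (limma adjusted p = 0.0196). Gbp10 no longer passed when replicate 1 or 3 of the vehicle group (limma adjusted p = 0.0749 and 0.0541) or replicate 1 or 3 of the imiquimod group (0.0635 and 0.0693) was left out.

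The separate values of Gbp6 and Gbp10 are uncertain. Of all 50-base stretches in their annotated transcripts, 29.3% of those of Gbp6 and 15.9% of those of Gbp10 occur in no other gene. In the remaining members it is 81.9% (Gbp8) to 98.6% (Gbp5). A readthrough gene, Gm43302, shares 1726 exon bases with Gbp6 and 1792 with Gbp10, yet it had 1 fragment over the vehicle and 2 over the imiquimod libraries. Fragments in the shared exons were therefore not added to all genes that hold them, and the FPKM of Gbp6 and Gbp10, divided by their full exon length, may be too low.

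Gbp8 was the least abundant member. It stood at 0.0821, 0.117 and 0.0891 FPKM in vehicle and at 0.423, 0.104 and 0.631 FPKM in imiquimod mice, so imiquimod replicate 2 lay within the vehicle range. The counts behind these values were 5, 7 and 6 fragments against 30, 8 and 51. At equal depth the summed fragments gave a ratio of 4.07 with an exact 95% interval of 2.43 to 7.17, which covers counting error only and not the spread between mice. Gbp8 was under the filter, and with no filter it did not pass (1.13 ± 0.49, limma adjusted p = 0.289).

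The family genes outside the 9 did not move alike. Gbp11 stood at 0.315, 0.491 and 0.323 FPKM in vehicle and at 1.06, 0.681 and 1.20 FPKM in imiquimod mice. Its groups did not overlap. It entered the test only through its imiquimod level and was called higher (1.17 ± 0.29, limma adjusted p = 0.0412), but not with no filter (limma adjusted p = 0.0750). The call was also lost on leaving out any library other than the second imiquimod one (adjusted p 0.0667 to 0.130). Gbp2b, which lies between Gbp3 and Gbp2, had 5, 0 and 2 fragments in vehicle and 0, 0 and 2 in imiquimod mice. It was near the floor of detection in both groups although its promoter window held an ISRE-like match, and its coding sequence is 82.5% identical to that of Gbp2. The pseudogene Gbp2-ps was listed at 0 in all 6 libraries.

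**Figure D3:**
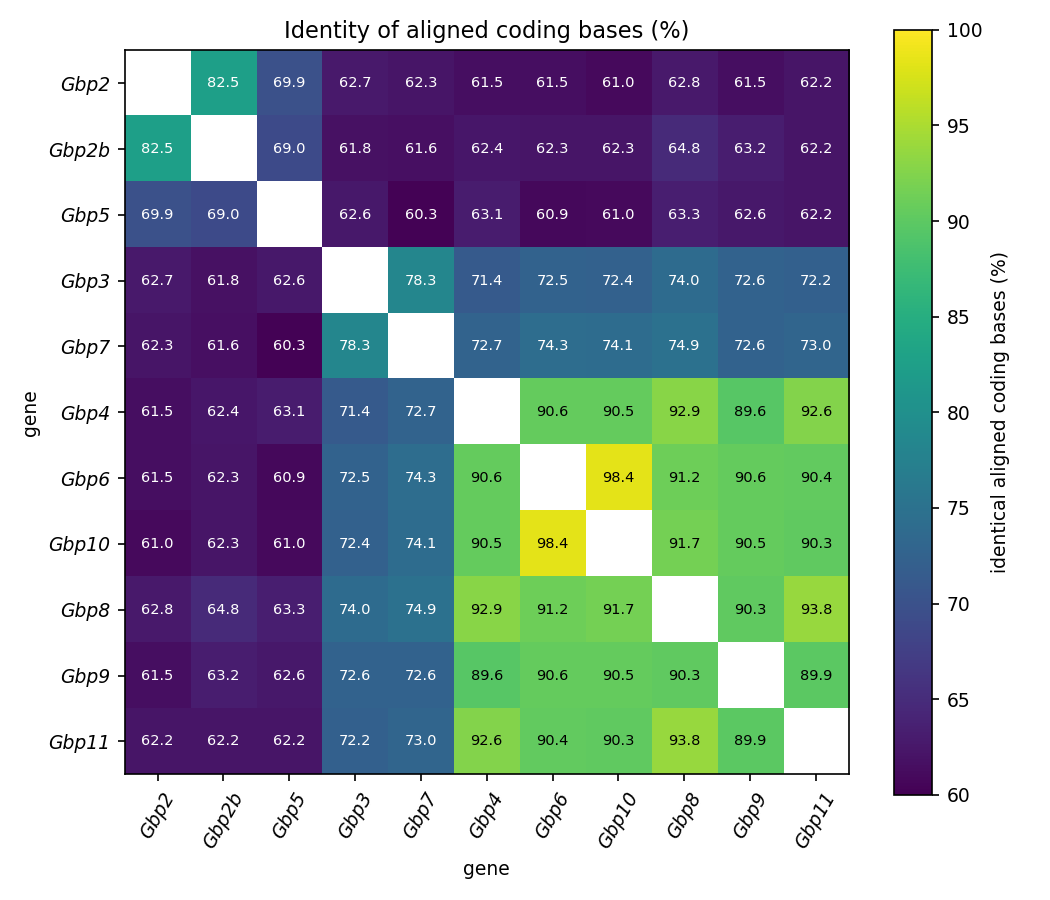
Percentage of identical bases in pairwise global alignments of the longest coding sequence of each Gbp gene. The chromosome 5 genes (Gbp4, Gbp6, Gbp8, Gbp9, Gbp10, Gbp11) form a block of 89.6% or more, Gbp6 and Gbp10 reach 98.4%, and Gbp3 with Gbp7 and Gbp2 with Gbp5 are the closest member pairs on chromosome 3.

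The order of levels was nearly the same in both groups. In vehicle mice the means fell from Gbp3 (9.46 ± 5.04 FPKM) through Gbp2 (5.25 ± 0.629), Gbp7 (2.83 ± 1.12), Gbp9 (1.77 ± 0.227), Gbp4 (1.15 ± 0.650), Gbp5 (0.984 ± 0.112), Gbp6 (0.380 ± 0.149) and Gbp10 (0.292 ± 0.277) to Gbp8 (0.0960 ± 0.0184). Ranges over the vehicle mice overlapped between Gbp3 and Gbp2, from Gbp9 through Gbp4 to Gbp5, and from Gbp6 through Gbp10 to Gbp8. In imiquimod mice the means were 74.0 ± 10.4 FPKM for Gbp3, 31.2 ± 10.9 for Gbp2, 12.6 ± 1.22 for Gbp7 and 6.04 ± 0.944 for Gbp9, with no overlap between these neighbours. Gbp4 (3.25 ± 1.14), Gbp6 (3.22 ± 0.471) and Gbp5 (3.16 ± 0.943) were level within their spread, and Gbp5 overlapped with Gbp10 (1.96 ± 0.641). Gbp8 was last at 0.386 ± 0.266 FPKM. The levels are per exon length of the GENCODE model. That length is 6637 bases for Gbp5 and 7494 for Gbp4, whose coding sequences have 2172 and 1893 bases, so little-used exons can lower their FPKM beside Gbp2 (2516 exon bases, 1767 coding).

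As shares of the summed FPKM, Gbp3 took 32.6%, 48.0% and 42.2% in vehicle and 56.0%, 59.8% and 49.0% in imiquimod mice, and its groups did not overlap. Gbp2 took 30.8%, 18.9% and 25.3% against 22.5%, 17.6% and 27.3%, with overlap. Gbp9 went from 8.40 ± 1.71% to 4.47 ± 0.304% (SD, n = 3 each), Gbp7 from 12.7 ± 0.495% to 9.41 ± 0.867%, Gbp4 from 4.95 ± 1.03% to 2.34 ± 0.493% and Gbp5 from 4.74 ± 1.46% to 2.29 ± 0.347%. Gbp6 went from 1.70 ± 0.199% to 2.38 ± 0.107%. Each of these, Gbp3 included and Gbp2 left aside, separated the groups, with a two-sided exact permutation p of 0.1, the smallest possible, and 0.15 after Benjamini-Hochberg adjustment over the 9 shares. The shares therefore did not pass in a design of this size.

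**Figure D4:**
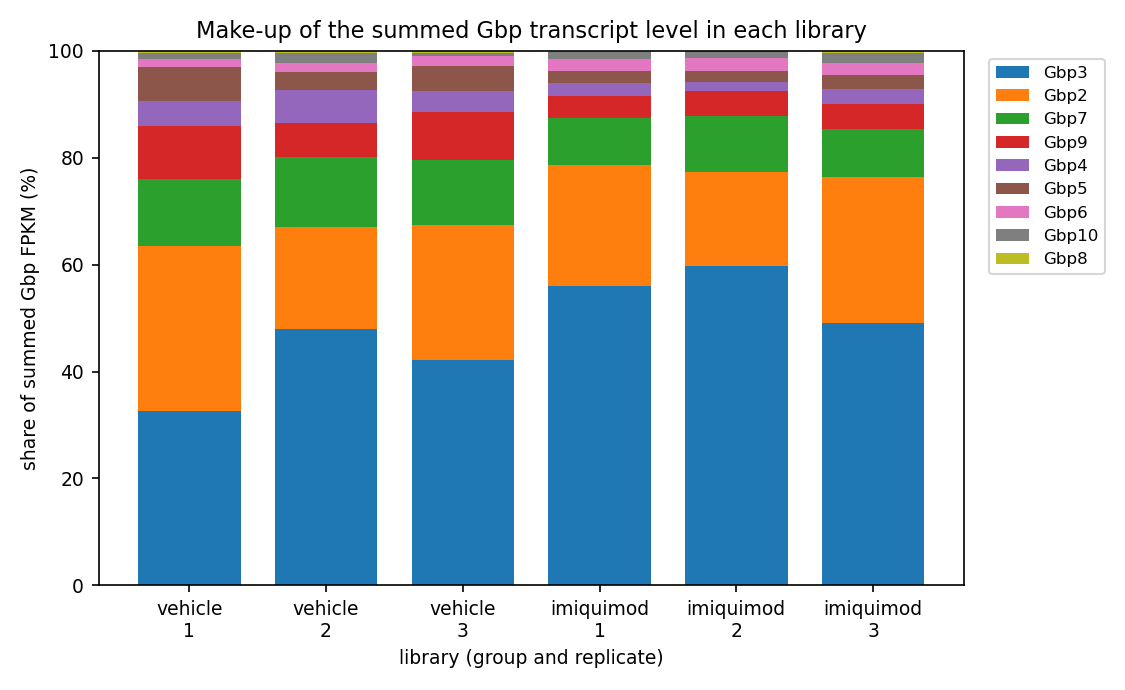
Stacked bars (0 to 100%) of the share that each of the 9 Gbp genes takes of their summed FPKM, for the 6 libraries. Gbp3 (bottom, blue) takes the largest share in every library, at most 48.0% in the vehicle libraries and up to 59.8% in the imiquimod libraries.

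The mice differed within their groups in the same sense for the whole family. Vehicle replicate 2 was the highest vehicle library for 9 of 9 members, and imiquimod replicate 2 the lowest imiquimod library for 9 of 9. Gbp3 in vehicle replicate 2 was 15.1 FPKM against 5.40 and 7.88 FPKM, whereas Gbp2 was 5.94 against 5.10 and 4.71 FPKM. Summed markers of monocytes also had their highest vehicle value in vehicle replicate 2 and their lowest imiquimod value in imiquimod replicate 2, at 2.85, 10.9 and 4.65 FPKM in vehicle and 62.1, 22.4 and 81.3 FPKM in imiquimod mice. The same libraries were highest and lowest for T and NK cells, at 3.17, 4.73 and 4.06 FPKM against 45.5, 23.4 and 52.2 FPKM. Of these lists, 4 of 7 monocyte markers (such as Ccr2 and Ly6c2) were called higher, with all 7 tested. For T and NK cells it was 7 of 12 markers (such as Nkg7 and Gzmb), with 8 tested. No marker of either list was at 0 in all vehicle libraries. Endothelial markers were higher for 4 of 6 genes, with sums of 103, 120 and 112 against 241, 213 and 220 FPKM. Vehicle replicate 2 was again the highest vehicle library and imiquimod replicate 2 the lowest imiquimod library. Microglia markers were higher for 2 of 8 and lower for 1. Their sums were 98.2, 98.1 and 110 against 153, 155 and 118 FPKM, so replicate 2 was lowest in vehicle and highest in imiquimod mice. Neutrophil markers were higher for 1 of 6, with 4 tested. Their sums were 18.2, 60.6 and 24.2 against 27.8, 30.6 and 20.8 FPKM, highest in replicate 2 of both groups. Over all genes tested, 8.74% were called higher and 5.34% lower. The part of these cells in the Gbp levels was not tested.

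Genes of the signalling route that drives GBPs were higher in part. Of 16 listed genes, 15 were tested, 8 were higher and 0 lower, with a median log2 change of 0.50. Over all genes tested the median was -0.01, with 8.74% higher and 5.34% lower. Ifng itself had 1 fragment over the vehicle and 3 over the imiquimod libraries, too few to compare. Stat2, of the type I interferon complex, rose by 1.85 ± 0.24. Irf8, a myeloid transcription factor, stood at 1.04 ± 0.0323 FPKM against 3.90 ± 0.0567 FPKM (1.82 ± 0.09, limma adjusted p = 2.98e-04), with little spread within either group. Irf1, which binds Gbp promoters, stood at 1.78 ± 0.271 FPKM against 4.42 ± 1.75 FPKM, with imiquimod replicate 2 at 2.41 FPKM (1.19 ± 0.31, limma adjusted p = 0.0491). Irf1 was lost on leaving out any library other than that one (adjusted p 0.112 to 0.146). It was also lost with a pseudocount of 1 (0.0538) or 0.01 (0.0504), with no filter (0.0948) and with voom on recovered fragments (0.0514). The list had 4 calls without vehicle replicate 3 or imiquimod replicate 3, and 5 on leaving out replicate 1 or 2 of the vehicle group or replicate 1 of the imiquimod group. The receptor-bound kinase gene Jak1 had 25.6 ± 0.498 and 23.1 ± 2.16 FPKM in the groups, a log2 change of -0.15 ± 0.08 that missed the threshold (limma adjusted p = 0.241).

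Of 15 other interferon-inducible GTPases listed, 13 were tested, 10 were higher and 0 lower, beside 8.74% and 5.34% of all genes tested. Their log2 changes ran from 0.43 (9930111J21Rik2, not called) to 3.78 (Mx1), with a median of 2.32, and their difference from the GBPs was not tested. The immunity-related GTPases, which act with GBPs at pathogen vacuoles, included Irgm1 (2.95, 4.97 and 3.19 against 35.4, 22.2 and 31.5 FPKM, 2.98 ± 0.24, limma adjusted p = 0.00106), Iigp1 (2.95 ± 0.29), Ifi47 (2.17 ± 0.22) and Igtp (2.73 ± 0.32). The list of 10 dynamin-like GTPases that are not interferon-induced includes the atlastins, close relatives of the GBP fold. Its median was -0.08. It had 0 genes called lower and 1 gene called higher, near the share of 8.74% over all genes tested. That gene was Dnm2 (0.32 ± 0.07, limma adjusted p = 0.0299), which was lost on leaving out any library other than the first imiquimod one (adjusted p 0.0513 to 0.120). The difference of this list from the others was not tested.

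**Figure D5:**
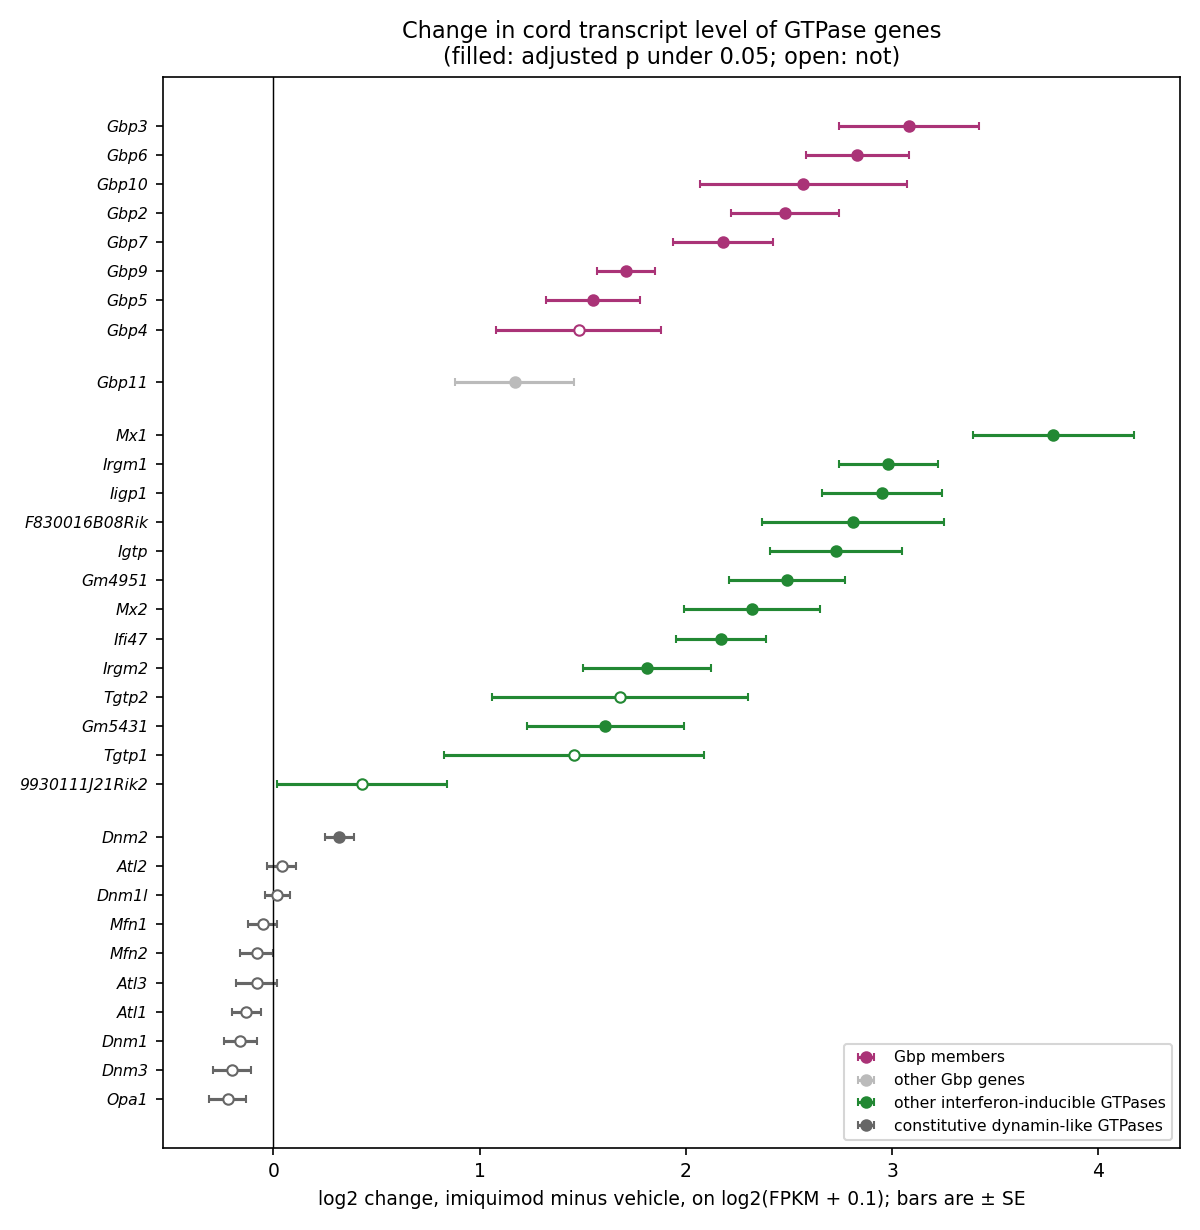
Log2 change (imiquimod minus vehicle, on log2(FPKM + 0.1), bars ± SE, n = 3 mice per group) of the tested GTPase genes, with filled points for adjusted p under 0.05. The 8 Gbp members lie from 1.48 to 3.08, the other interferon-inducible GTPases lie from 0.43 to 3.78, and the constitutive dynamin-like genes lie from -0.22 to 0.32.

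Downstream of GBPs, 5 of 12 inflammasome and pyroptosis genes were higher and 0 lower, with 9 tested and a median log2 change of 1.41. Over all genes tested, 8.74% were higher and 5.34% lower. Casp4, the caspase that senses lipopolysaccharide, stood at 0.152, 0.202 and 0.138 FPKM in vehicle and 1.37, 0.747 and 1.34 FPKM in imiquimod mice (2.21 ± 0.32, limma adjusted p = 0.0074). Zbp1 (3.32 ± 0.40), the adaptor gene Pycard (2.05 ± 0.20), Casp1 (1.85 ± 0.21) and Gsdmd, the pore-forming gasdermin (1.41 ± 0.23, limma adjusted p = 0.0111), were higher as well. Aim2, a DNA sensor that GBPs can supply by lysing bacteria, had 1.21 ± 0.224 and 1.70 ± 0.116 FPKM in the groups, a log2 change of 0.47 ± 0.16 that missed the threshold (limma adjusted p = 0.104).

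Of 16 genes that recruit GBPs to vacuoles or act there, 5 were higher and 0 lower, with a median of 0.04. Among all genes tested, 8.74% were higher and 5.34% lower. The list had 2 calls without vehicle replicate 1, and 3 on leaving out replicate 2 or 3 of the vehicle group or replicate 1 or 3 of the imiquimod group. The higher ones with the smallest adjusted p were Trim21 (2.19 ± 0.24), the autophagy receptor gene Sqstm1 (0.43 ± 0.06, limma adjusted p = 0.00721) and Lgals8, a lectin of broken vacuoles (0.30 ± 0.06, limma adjusted p = 0.0216). Lgals3, another such lectin, and Rnf213, a ubiquitin ligase, were the other 2. Lgals8 was lost on leaving out any vehicle library (adjusted p 0.0766 to 0.0913). None of the conjugation genes Atg3, Atg5, Atg7, Atg12 and Atg16l1 passed, with log2 changes of -0.06 to 0.01. Of 7 enzymes listed for prenylation, the lipid modification of Gbp2 and Gbp5, 6 were tested. Called lower was 1, beside 5.34% of all genes tested. That gene was Fnta, the alpha subunit shared by farnesyl and geranylgeranyl transferase (fell by 0.39 ± 0.10, limma adjusted p = 0.0397). Fnta was lost on leaving out any vehicle library or the third imiquimod one (adjusted p 0.0686 to 0.147), and with no filter (0.0712).

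The genes whose pattern over the 6 libraries was most like that of the tested members, by the median Pearson r of log2(FPKM + 0.1) to the 8, were Parp10 (0.988), Irgm1 (0.987), Ncf1 (0.987), Tap1 (0.987) and Lair1 (0.987), among 13868 genes with a mean of at least 1 FPKM outside the family. Any gene that separates the groups cleanly has a high r over 6 libraries, so these values are a description. Parp10 encodes an ADP-ribosyltransferase, Ncf1 a subunit of the phagocyte NADPH oxidase, Tap1 a peptide transporter and Lair1 an inhibitory receptor of leukocytes. All 5 were higher in the imiquimod cords, by 1.14 ± 0.12 for Lair1 to 2.98 ± 0.24 for Irgm1.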

How the data were processed

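Per the submitters' processing notes, the tools were featureCounts 1.5.0-p3, DESeq2 1.16.1 and HISAT2 2.0.5, with build mm10 and no roles given. The sources used here do not give the annotation release, the strand setting or the handling of multi-matching reads. The deposited values are FPKM, 1 file per mouse. FPKM times GENCODE M21 exon length gave whole fragments within 0.05 for 97.4% to 97.6% of values under 1000 fragments, and for every Gbp gene. The implied totals follow size factors, so no further scaling was applied.

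The main test was limma 3.58.1 (R 4.3.3) on log2(FPKM + 0.1), the prior variance following the mean, over genes with a mean of at least 0.5 FPKM in either group, with Benjamini-Hochberg adjustment over all 16513 genes at 0.05. It was also run on simulated counts with a set spread, equal in both groups, which does not show how the test fares on these data. Folds of low genes are understated on that scale. Shares and ratios used exact permutation tests. Coding sequences were aligned with Biopython 1.88. Other steps ran in Python 3.11.15 with SciPy 1.17.1, pandas 2.3.3, matplotlib 3.10.9 and NumPy 2.4.6. Promoter sequences are RefSeq's (GRCm38.p6). Symbols matched 54409 identifiers.

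Members and lists were chosen with earlier results of these data known. All 9 members were named, as were Gbp2b and Gbp11. From each list came up to 3 higher and 2 lower genes of smallest adjusted p, set defining genes, and the 5 most alike genes. A gene that this rule names is not reported here. Other genes named were chosen after their values were seen. Alternatives changed the pseudocount (1 or 0.01), filter (1 FPKM or none), scaling, library weights, block, count model (voom on recovered fragments) and libraries left out.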

Additional observations from a re-analysis of the deposited data

How the results depend on the processing

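Gbp2, Gbp3, Gbp5, Gbp6, Gbp7 and Gbp9 were called higher in all 14 alternatives run, with adjusted p from 4.03e-04 to 0.0378. The number of members called ran from 6 to 8. Gbp4 passed in 5 of its 14 alternatives. These included a minimum of 1 FPKM (1.48, limma adjusted p = 0.0471), quantile normalisation (1.43, 0.0495) and voom on recovered fragments (1.59, 0.0308). It did not pass with no filter (limma adjusted p = 0.102), the replicate block (0.117), quality weights (0.0717) or a pseudocount of 1 (0.0524) or 0.01 (0.0548). The log2 change of Gbp4 ran from 1.25 to 1.88 with 1 library left out. That of Gbp10 ran from 2.17 to 3.11. Labels number the replicates of both groups 1 to 3. Deviations of same-numbered libraries correlated at 0.0186, -0.0970 and -0.0331 over 16513 genes. With so few libraries this cannot decide whether a number marks a shared litter, day or batch, and the labels do not say. With the replicate block Gbp10 (2.57, limma adjusted p = 0.0553) did not pass, nor did Gbp11 (0.107), Irf1 (0.0604), Lgals8 (0.0595) and Dnm2 (0.0660), and 1330 genes were called (894 higher, 436 lower) in place of 2326 (1444 and 882). Leaving out 1 library gave 847 to 2986 calls (660 to 1690 higher, 187 to 1296 lower), and no filter gave 508 lower. Quantile normalisation gave 50.9% of calls higher in place of 62.1%.

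The list of 16 interferon signalling genes had 8 higher in the main fit, 5 with no filter, 5 with the block, and 4 to 10 with 1 library left out. The vacuole list gave 2 to 5 higher. Prenylation enzymes gave 2 lower with a minimum of 1 FPKM, with quantile normalisation and with quality weights, 0 with no filter, and 0 to 2 with 1 library left out. Dynamin-like genes gave 0 higher with the block, and 0 to 1 higher and 0 to 2 lower with 1 library left out. In shares of recovered fragments, not divided by length, Gbp4 differed by -4.56 points, Gbp5 by -3.78 and Gbp6 by 1.33, in place of -2.61, -2.45 and 0.685. The causes were not tested. The shares of Gbp2 and Gbp10, whose groups overlapped, changed sign. Gbp2 differed by -2.52 points, and by 0.381 without vehicle replicate 1, and Gbp10 by 0.262, and by -0.0717 without vehicle replicate 3. No member's log2 change changed sign in the alternatives run. Depth limits Gbp8, Gbp10, Gbp11 and Gbp2b most, and 3 fragments in a 2 kb gene correspond to 0.0639 to 0.0863 FPKM.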

Other observations

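Promoter windows were also counted by call, as a description. An ISRE-like match (GAAA, any 2 bases, GAAA) stood in 118 of 1337 windows of genes called higher (8.83%), in 12 of 804 windows of genes called lower (1.49%) and in 453 of 14585 windows of all genes tested (3.11%). For the GAS-like match (TTCNNNGAA) the shares were 8.60%, 5.47% and 6.71%. Most windows of genes called higher thus held no ISRE-like letters in these 300 bases. All 4 Gbp members with a window had a match, though the second window of Gbp3 had none.

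Over the 36 pairs of members, the Pearson r of log2(FPKM + 0.1) across the 6 libraries was highest for Gbp3 with Gbp7 (0.997) and Gbp2 with Gbp5 (0.995), the closest pairs of coding sequence on chromosome 3. Gbp6 with Gbp10, the closest pair of all, had 0.950, with few fragments of Gbp10 in vehicle mice. Pairs across chromosomes with less alike coding sequences were nearly as high, such as Gbp3 with Gbp6 (0.994, 72.5% identical) and Gbp2 with Gbp9 (0.993, 61.5%). Gbp6 with Gbp9 (90.6%) had 0.994, but Gbp4 with Gbp8 (92.9%) had 0.873. Whether r follows coding identity was not tested. The lowest r was 0.741, between Gbp3 and Gbp8. All 36 values share the difference between the groups, so they describe these libraries only.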
